A study of Homo sapiens with 6 samples.

Results

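Collagens, laminins and integrins are the main structural proteins of the extracellular matrix and the receptors that hold cells to it. Their genes were picked from the table by name (COL, LAM or ITG followed by a chain letter or number, without antisense genes and pseudogenes). The rule took 72 of the 29435 rows: 36 collagen genes, 11 laminin genes, 16 integrin alpha genes, 7 integrin beta genes and 2 genes, ITGB1BP1 and ITGB1BP2, that encode integrin-binding proteins and not integrin subunits. Of these 72, 33 were expressed and were tested: they had 1 FPKM (fragments scaled to transcript length and library size) or more in no fewer than 3 of the 6 libraries.

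Collagens are trimers of alpha chains. The fibrillar types build the fibrils of connective tissue, FACIT collagens sit on the fibril surface, and type IV collagen forms the network of basement membranes. Laminins are crosses of an alpha, a beta and a gamma chain that polymerise in the basement membrane, and the alpha chain carries the main sites for integrins. Integrins pair an alpha with a beta subunit at the plasma membrane, bind collagen, laminin or proteins with an RGD motif outside the cell, and are linked through talin and kindlin to actin inside it.

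The 3 SsA libraries came from cells treated with saikosaponin A, a triterpenoid saponin of Bupleurum root, at 20 µM for 4 h, and the 3 DMSO libraries from cells given the vehicle for 4 h. All cells were labelled HepG2, a line from a human liver tumour, and were grown in DMEM with serum and antibiotics. The comparison asks which transcripts differ after the treatment. Replicates are numbered in the labels with no word on separate cultures, and a p-value here covers no more than how these 6 libraries vary.

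Total counts ran from 57768359 to 74912492 per library. Mitochondrial genes took 18.8% of the counts in SsA replicate 1 and 14.9% in DMSO replicate 3, against 6.19% to 8.28% in the other 4 libraries. The hepatocyte character of the label was not seen: of 12 hepatocyte markers 8 had a row, all 8 averaged below 1 FPKM over the 6 libraries and 7 of them below 0.1 FPKM, among them APOA1, TF, FGA and HNF4A. Of 11 fibroblast and stellate cell markers 5 averaged at least 1 FPKM, while DCN, THY1, POSTN and PDGFRA were below 0.1 FPKM. The markers summed to 479.9 to 809 FPKM in SsA libraries and 289 to 530.3 FPKM in DMSO libraries. Most of these sums came from S100A4 and VIM, which averaged 442 and 121 FPKM over the 6 libraries. ACTA2, PDGFRB and FAP averaged 1.02, 1.55 and 2.18 FPKM. S100A4 (log2 fold change 0.93 ± 0.32, adjusted p = 0.0448) and VIM (0.51 ± 0.12, adjusted p = 0.00984) were called higher in SsA cells and PDGFRB (-0.66 ± 0.13, adjusted p = 0.0061) lower, and FAP (-0.11 ± 0.08, adjusted p = 0.287) and ACTA2 (0.24 ± 0.18, adjusted p = 0.279) were not called. With an offset for transcript length, described further on, VIM stayed higher by edgeR (0.44 ± 0.12, adjusted p = 0.0286). S100A4 (0.08 ± 0.27, adjusted p = 0.845) and PDGFRB (-0.25 ± 0.13, adjusted p = 0.177) were not called with that offset. Leukocyte, endothelial and platelet markers all averaged below 1 FPKM, and of the 5 other epithelial markers with a row KRT8 and KRT18 were above it, averaging 276 and 416 FPKM. Endothelial markers summed to 0.509 to 0.551 FPKM in SsA libraries and 0.982 to 1.03 FPKM in DMSO libraries, and platelet markers to 0.0671 to 0.123 FPKM in SsA libraries and 0.294 to 0.358 FPKM in DMSO libraries. Most of the endothelial sums came from CDH5, at 0.443 FPKM in SsA cells and 0.867 FPKM in DMSO cells. The other 5 endothelial markers averaged below 0.1 FPKM, with only PECAM1 among them averaging more in SsA cells. Most of the platelet difference came from GP1BA, with 4 to 6 counts in SsA libraries and 38 to 44 in DMSO libraries. No endothelial or platelet marker passed the expression filter. The part of the cell type markers in the results below was not tested. In RNA from whole cultures, fewer cells of a type and less RNA per cell cannot be told apart.

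The promoters of 6 loci introduce the genes that the results turn on. They are stretches between the starts of 2 pairs of type IV collagen genes, which are transcribed away from each other, and the 250 bases before the start of 3 genes that fell by at least 2-fold and of ITGB1, the most abundant gene of all 33. Sequences are from RefSeq on GRCh38.p14, 5′ to 3′ on the strand named, and capitals mark GGGCGG, the core of the GC box, or CCAAT, on either strand. RefSeq's start can lie away from the gene end in the deposited table, as it does for LAMA5, ITGB1, COL4A2, COL4A4 and ITGB8.
COL4A2 and COL4A1, chr13:110307158-110307283, plus strand: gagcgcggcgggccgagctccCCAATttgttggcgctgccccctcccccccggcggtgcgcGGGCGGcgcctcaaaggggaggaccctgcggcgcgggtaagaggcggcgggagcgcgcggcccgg
COL4A3 and COL4A4, chr2:227164374-227164623, plus strand: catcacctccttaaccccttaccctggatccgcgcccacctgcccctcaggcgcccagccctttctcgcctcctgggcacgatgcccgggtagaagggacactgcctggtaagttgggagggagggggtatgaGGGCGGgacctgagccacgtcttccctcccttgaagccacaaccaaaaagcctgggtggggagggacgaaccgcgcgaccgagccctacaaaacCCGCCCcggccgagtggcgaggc
LAMA5, chr20:62367313-62367562, minus strand: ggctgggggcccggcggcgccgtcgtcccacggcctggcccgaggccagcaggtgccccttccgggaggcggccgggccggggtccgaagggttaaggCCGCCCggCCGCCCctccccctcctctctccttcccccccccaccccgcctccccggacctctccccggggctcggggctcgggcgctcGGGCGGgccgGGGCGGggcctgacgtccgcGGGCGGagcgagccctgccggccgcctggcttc
COL12A1, chr6:75206054-75206303, minus strand: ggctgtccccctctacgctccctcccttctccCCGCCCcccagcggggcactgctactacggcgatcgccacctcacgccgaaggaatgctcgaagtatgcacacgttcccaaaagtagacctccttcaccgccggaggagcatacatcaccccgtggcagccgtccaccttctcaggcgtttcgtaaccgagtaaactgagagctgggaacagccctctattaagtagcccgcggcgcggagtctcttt
ITGB8, chr7:20330650-20330899, plus strand: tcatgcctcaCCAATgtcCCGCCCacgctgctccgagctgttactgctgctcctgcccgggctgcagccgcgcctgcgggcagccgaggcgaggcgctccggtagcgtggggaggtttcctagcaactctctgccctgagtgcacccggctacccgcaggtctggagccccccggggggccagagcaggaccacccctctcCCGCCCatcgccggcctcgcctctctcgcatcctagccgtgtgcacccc
ITGB1, chr10:32958231-32958480, minus strand: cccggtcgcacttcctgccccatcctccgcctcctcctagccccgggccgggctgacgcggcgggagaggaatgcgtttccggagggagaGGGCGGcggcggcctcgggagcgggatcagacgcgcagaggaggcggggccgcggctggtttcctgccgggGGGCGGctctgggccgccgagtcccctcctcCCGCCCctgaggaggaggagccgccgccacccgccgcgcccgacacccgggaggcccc
The RefSeq starts of COL4A2 and COL4A1 lie 127 bases apart, so the 126 bases shown are all that separates these starts. In the deposited table COL4A2 and COL4A1 overlap. The RefSeq starts of COL4A3 and COL4A4 lie 419 bases apart, of which the 250 next to COL4A3 are shown. The LAMA5 window holds 5 GC box cores, that of ITGB1 holds 3, and that of COL12A1 holds 1. Among the 25 tested genes with a RefSeq window (250 bases before the start), GGGCGG was found in 19 (76%), against 46.2% of the windows of all 27305 genes. The 25 genes are all expressed, while the 27305 were not filtered for expression, and shares over expressed genes alone were not taken. CCAAT was found in 6 (24%), against 37.0% of all. TATAAA, the TATA box, stood in 4 (16%) against 13.0% of all, and TGANTCA, the AP-1 motif, in LAMB3 alone (4%) against 8.06% of all. Motifs were searched on both strands, and the GC box core read on the other strand (CCGCCC) can share bases with CCAAT. A match describes the letters in the window and does not show a bound factor.

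Most of the expressed genes had lower transcript levels, relative to the other genes, after saikosaponin A. By edgeR's quasi-likelihood test with Benjamini-Hochberg adjustment over 11427 genes, 24 of the 33 tested genes were called lower (adjusted p below 0.05), where 27.9% of all genes were called lower, and 3 were called higher, where 25.9% of all genes were called higher. The 3 higher genes were ITGAE, ITGB1 and ITGB1BP1. Another 6 were not called: COL3A1, COL15A1, COL9A2, COL9A3, LAMB3 and ITGB5. The median log2 fold change (SsA over DMSO) was -0.43 over the 33 genes and 0.03 over all genes tested. DESeq2 also called 24 lower and 3 higher. These genes are long, and with an offset for transcript length, described further on, 6 were called lower, where 13.4% of all genes were, and 7 higher, where 20.1% of all genes were.

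Falls of at least 2-fold were found for LAMA5, COL12A1, COL1A1, LAMA1, ITGA2 and ITGB8, 6 of the 33 genes, where 5.42% of all genes were called lower by that much. ITGA2, with no SsA library at 1 FPKM, and ITGB8, with 1, passed the filter through the DMSO libraries, and ITGA2 was at -0.70 without SsA replicate 1 and at -0.57 in the 4 libraries of lower mitochondrial share. None of the 33 rose 2-fold, where 2% of all genes did. The SsA and DMSO libraries did not overlap in CPM (a count as a share of its TMM-scaled library) for 27 of the 33 genes, where 62.8% of all genes did not overlap. Of the 24 falls, 10 were among 14 tested collagen genes and 6 among 7 laminin genes. Another 6 were among 7 integrin alpha genes and 2 among 4 integrin beta genes. Over all genes 27.9% were called lower. The median lengths of these 4 families were 6601, 6133, 5618 and 5145.5 nt. Of protein-coding genes, 53.3% were called lower at 4914 to 5855 nt and 68.8% at 5857 to 7540 nt. ITGB1BP2, a muscle protein that binds ITGB1, was among the genes not tested.

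**Figure D1:**
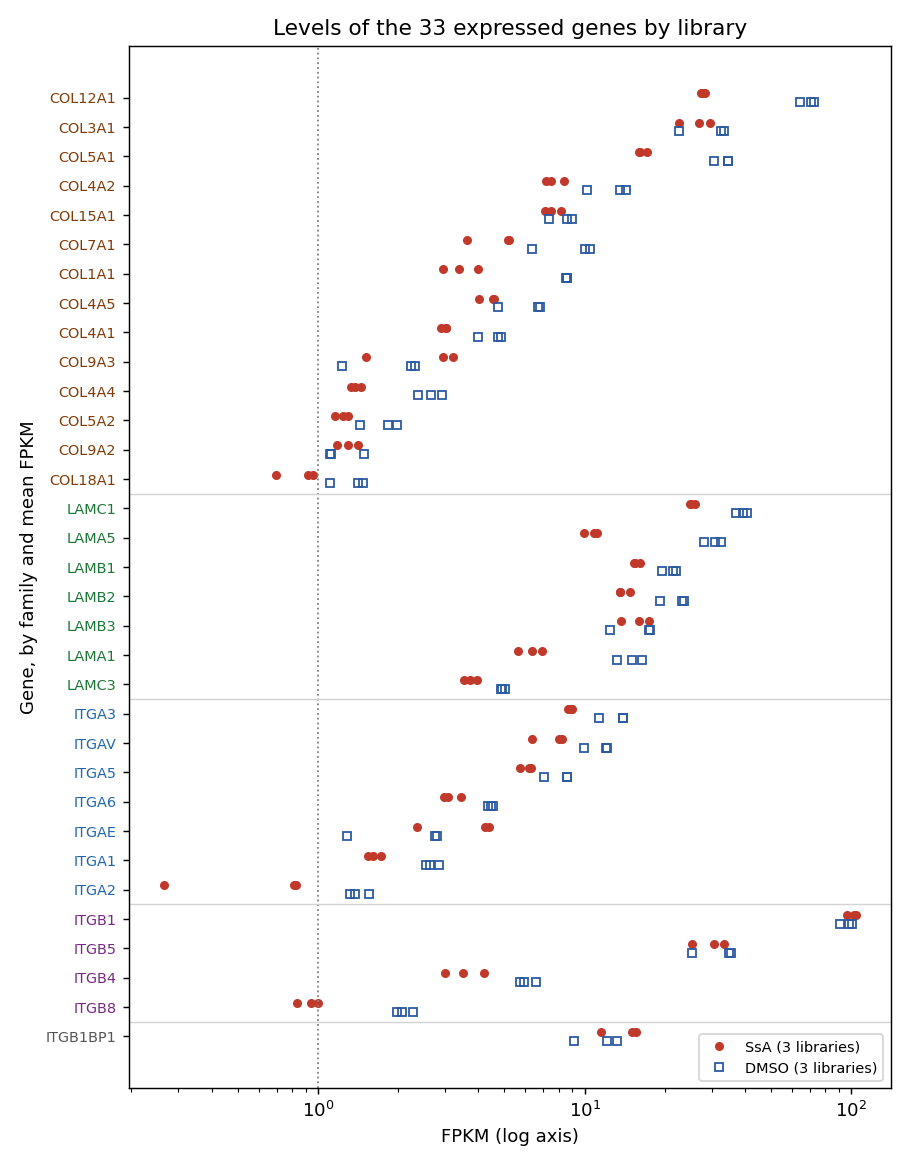
FPKM (log axis) of the 33 tested genes in each library, by family and mean level, with filled points for the 3 SsA libraries, open squares for the 3 DMSO libraries and a dotted line at 1 FPKM. ITGB1 stands near 100.9 FPKM in SsA cells and 96.6 FPKM in DMSO cells, and for most genes below it the SsA points lie to the left of the DMSO squares.

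COL12A1, a FACIT collagen that coats fibrils, was the most abundant collagen transcript, at 27.7 ± 0.556 FPKM in SsA cells and 69.2 ± 4.16 FPKM in DMSO cells (SD, n = 3 each). It had 471, 407 and 406 CPM in SsA libraries, against 926, 947 and 982 CPM in DMSO libraries. Its SsA libraries were all below its DMSO libraries, a fall of 2.22-fold (log2 fold change -1.15 ± 0.08, SE, adjusted p = 1.27e-04). It made up 25.1% ± 1.70 of the summed collagen FPKM in SsA cells and 35.9% ± 1.91 in DMSO cells (SD, n = 3 each, exact permutation p = 0.1, the smallest that 3 against 3 libraries allow, two-sided). Its transcript, at 11723 nt, is the longest of the collagen transcripts, and length is taken up further on. The gene lies at chr6:75084326-75206053 (GRCh38, minus strand).

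The fibrillar collagens moved unequally. COL5A1, which with COL5A2 seeds collagen fibrils, fell with little spread. It had 238, 226 and 216 CPM in SsA libraries, against 404, 404 and 416 CPM in DMSO libraries (log2 fold change -0.85 ± 0.06, adjusted p = 1.39e-04). COL1A1, the main chain of type I collagen, fell too (-1.14 ± 0.15, adjusted p = 0.00114). It had 47.9, 36.2 and 31.9 CPM in SsA libraries, against 80.6, 81.3 and 94.2 CPM in DMSO libraries, so the highest SsA library stayed below the lowest DMSO library. The gene lies at chr17:50184101-50201632. COL3A1, the chain of type III collagen, did not follow. It had 204, 235 and 218 CPM in SsA libraries, against 229.9, 236 and 186 CPM in DMSO libraries, groups that overlap, with a log2 fold change of 0.01 ± 0.11 (adjusted p = 0.942). The ratio of COL1A1 to COL3A1 in FPKM was 0.133 ± 0.037 in SsA cells and 0.300 ± 0.069 in DMSO cells (SD, n = 3 each), with no overlap (exact permutation p = 0.1, the smallest this design allows). COL5A2 was low in both groups, at 1.24 ± 0.0692 FPKM in SsA cells and 1.75 ± 0.28 FPKM in DMSO cells, and fell slightly (-0.33 ± 0.10, adjusted p = 0.0319).

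Of the 6 type IV collagen genes 4 were tested, and all 4 fell, where 27.9% of all genes were lower, though none was called with the length offset. With protein-coding genes split by length into 10 bins of equal number, 68.8% were lower in bin 9, which holds COL4A1, COL4A2 and COL4A5, and 78.3% in bin 10, the longest, which holds COL4A4. The pair COL4A2 and COL4A1 encodes the chains of the network found in nearly every basement membrane. COL4A2 had 185, 191 and 173 CPM in SsA libraries, against 274, 289 and 241 CPM in DMSO libraries (log2 fold change -0.55 ± 0.08, adjusted p = 0.00179). COL4A1 fell as well (-0.43 ± 0.07, adjusted p = 0.00294), with 59, 52.5 and 51 CPM in SsA libraries, against 72.9, 74.9 and 71.7 CPM in DMSO libraries. The FPKM ratio of COL4A2 to COL4A1 was 2.58 ± 0.19 in SsA cells and 2.78 ± 0.20 in DMSO cells (SD, n = 3 each), with overlapping groups (exact permutation p = 0.3). COL4A5, a chain of the network of kidney and other specialised membranes, had the fold change nearest to 0 of the 4 (-0.30 ± 0.09, adjusted p = 0.0266). It had 63.9, 63.5 and 65 CPM in SsA libraries, against 83.7, 84.5 and 68.8 CPM in DMSO libraries, where DMSO replicate 3 lay close to the SsA libraries. COL4A4 fell (-0.76 ± 0.10, adjusted p = 0.00101). Its divergent neighbour COL4A3 stood just outside the expression filter, with at most 1.16 FPKM and 2 DMSO libraries at or above 1 FPKM. In a fit with no filter COL4A3 was also lower (-0.54 ± 0.13, adjusted p = 0.0163).

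COL7A1, the collagen of anchoring fibrils that tie basement membrane to the stroma below, fell as well. It had 53.5, 67.4 and 68.8 CPM in SsA libraries, against 122, 117 and 85.8 CPM in DMSO libraries (log2 fold change -0.77 ± 0.16, adjusted p = 0.00576), with DMSO replicate 3 the lowest of its group. The 2 multiplexin collagens, which sit in basement membrane zones and release anti-angiogenic fragments, differed. COL15A1 had 72.4, 55.9 and 59.5 CPM in SsA libraries, against 62.5, 59.8 and 60.0 CPM in DMSO libraries, with overlapping groups (log2 fold change 0.04 ± 0.10, adjusted p = 0.738). COL18A1, the source of endostatin, was called lower (-0.48 ± 0.13, adjusted p = 0.0163), but no SsA library and all 3 DMSO libraries reached 1 FPKM, so it passed the filter only through the DMSO group. The cartilage FACIT chains COL9A3 (0.57 ± 0.28, adjusted p = 0.118) and COL9A2 (0.23 ± 0.16, adjusted p = 0.249) were not called, and their groups overlapped.

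The lowest log2 fold change of the 33 genes was that of a laminin. LAMA5, the alpha chain of the laminins most widespread in adult tissue, was lower by 2.55-fold. It had 189.9, 188 and 185 CPM in SsA libraries, against 461, 484 and 489 CPM in DMSO libraries (log2 fold change -1.35 ± 0.06, adjusted p = 3.94e-05). LAMA1, the alpha chain of the embryonic laminin, was lower by 2.11-fold. It had 119, 129 and 120.3 CPM in SsA libraries, against 249.9, 272 and 255 CPM in DMSO libraries (log2 fold change -1.08 ± 0.07, adjusted p = 7.92e-05). LAMA5 lies at chr20:62307955-62351989 and LAMA1 at chr18:6941742-7117797, both on the minus strand. In both genes each SsA library stood well under each DMSO library, and the spread within a group was small beside the gap. The FPKM ratio of LAMA5 to LAMA1 was 1.70 ± 0.08 in SsA cells and 2.05 ± 0.07 in DMSO cells (SD, n = 3 each, exact permutation p = 0.1, the smallest possible).

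The beta and gamma chains that join these alpha chains had fold changes nearer to 0. LAMC1, the gamma chain of most laminins and the most abundant laminin transcript, averaged 25.3 ± 0.575 FPKM in SsA cells and 38.9 ± 1.85 FPKM in DMSO cells (SD, n = 3 each). It had 279.5, 259 and 253 CPM in SsA libraries, against 348, 359 and 380.1 CPM in DMSO libraries (log2 fold change -0.46 ± 0.07, adjusted p = 0.00165). The beta chains LAMB2 and LAMB1 both fell. LAMB2 had 124, 120.2 and 111 CPM in SsA libraries, against 171, 167 and 161 CPM in DMSO libraries (-0.49 ± 0.06, adjusted p = 0.00102). LAMB1 had 164, 147 and 155 CPM in SsA libraries, against 182, 186 and 193 CPM in DMSO libraries (-0.26 ± 0.06, adjusted p = 0.0122). LAMC3, a rarer gamma chain, fell slightly, and its groups were close. It had 35.2, 32.9 and 35.4 CPM in SsA libraries, against 38.6, 39.5 and 44.6 CPM in DMSO libraries (-0.24 ± 0.08, adjusted p = 0.0369). LAMB3, the beta chain of an epidermal laminin that also holds LAMA3, was not called. It had 85.2, 95.6 and 89.1 CPM in SsA libraries, against 85.5, 85.9 and 70.8 CPM in DMSO libraries, with overlapping groups (0.16 ± 0.09, adjusted p = 0.194). LAMA3 never exceeded 0.551 FPKM.

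Alpha chains took a smaller part of the laminin transcripts after the treatment. Their summed FPKM was 17.4 ± 1.2 in SsA cells and 45.8 ± 3.8 in DMSO cells, against 29.1 ± 0.7 in SsA cells and 44.0 ± 1.9 in DMSO cells for the gamma chains (SD, n = 3 each). The ratio of alpha to gamma chains was 0.564, 0.619 and 0.607 in SsA libraries, against 1.05, 1.08 and 0.997 in DMSO libraries. The groups were far apart on this ratio (exact permutation p = 0.1, the smallest that 3 against 3 allow). The ratio of beta to gamma chains was 1.55 ± 0.05 in SsA cells and 1.34 ± 0.10 in DMSO cells, also without overlap. The tested alpha chain transcripts are longer than the others, 11426 nt for LAMA5 and 10374 nt for LAMA1, against 4305 to 7889 nt for the tested beta and gamma chains.

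**Figure D2:**
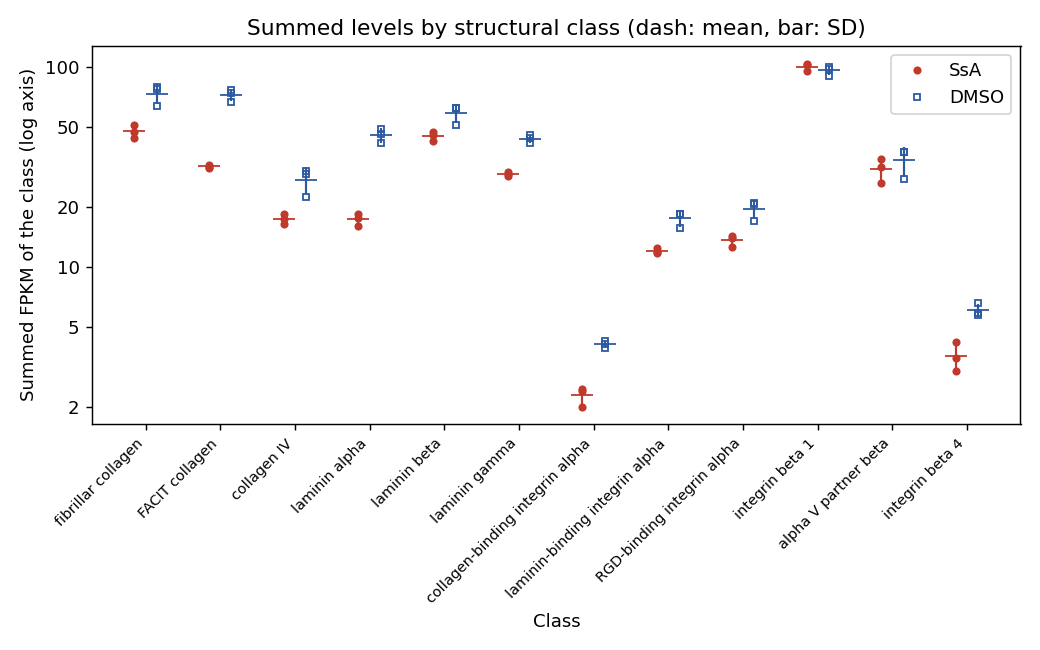
Summed FPKM (log axis) of structural classes of collagens, laminins and integrins in each library, SsA left and DMSO right in each pair, with the mean as a dash and the SD as a bar (n = 3 each). The laminin alpha chains show 17.4 FPKM in SsA cells and 45.8 FPKM in DMSO cells, while integrin beta 1 (ITGB1) shows 100.9 FPKM in SsA cells and 96.6 FPKM in DMSO cells.

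Among integrin alpha subunits, the laminin receptors ITGA3 and ITGA6 both fell. ITGA3 had 114, 103 and 105 CPM in SsA libraries, against 144, 143 and 135 CPM in DMSO libraries (log2 fold change -0.39 ± 0.06, adjusted p = 0.00251). ITGA6 had 27.7, 23.7 and 27.7 CPM in SsA libraries, against 31.5, 31.9 and 35.6 CPM in DMSO libraries (-0.32 ± 0.09, adjusted p = 0.0236). The subunits that bind RGD motifs also fell. ITGAV, which pairs with several beta subunits, had 69.5, 78.2 and 80.9 CPM in SsA libraries, against 104, 105 and 99.9 CPM in DMSO libraries (-0.43 ± 0.07, adjusted p = 0.00297). ITGA5, the fibronectin receptor subunit that pairs with ITGB1, had 61.8, 54.1 and 50.4 CPM in SsA libraries, against 66.7, 66.7 and 63.6 CPM in DMSO libraries (-0.24 ± 0.09, adjusted p = 0.0489). Each of these 4 genes had every SsA library below every DMSO library, by a narrow margin for ITGA5. The groups did not overlap, in either direction, for 62.8% of all genes. None of the 4 was called with the length offset.

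The collagen receptor subunits were scarcer, and their genes lie side by side, ITGA1 at chr5:52787916-52959209 and ITGA2 at chr5:52989340-53094779. ITGA1 had 42.8, 33.8 and 35.8 CPM in SsA libraries, against 55.4, 51 and 57.7 CPM in DMSO libraries (log2 fold change -0.55 ± 0.11, adjusted p = 0.00477). ITGA2 had 2.78, 7.72 and 7.66 CPM in SsA libraries, against 11.4, 10.9 and 15 CPM in DMSO libraries (-1.04 ± 0.37, adjusted p = 0.0496), and here SsA replicate 1 stood far below the other SsA libraries. Without SsA replicate 1 the log2 fold change of ITGA2 was -0.70 (adjusted p = 0.0161), and no SsA library of it reached 1 FPKM, so it passed the filter through the DMSO group alone. ITGAE, which pairs with ITGB7 on T cells and binds E-cadherin, went the other way. It had 20.8, 34.3 and 33.4 CPM in SsA libraries, against 19.1, 19.4 and 10.4 CPM in DMSO libraries (0.85 ± 0.28, adjusted p = 0.0382). SsA replicate 1 stood only just above the DMSO libraries, and DMSO replicate 3 was lowest.

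The integrin beta subunits split. ITGB1, the partner of most of the alpha subunits above, was the most abundant of the 33 transcripts by FPKM (chr10:32900318-33005792). It had 772, 739 and 735 CPM in SsA libraries, against 621, 633 and 667 CPM in DMSO libraries, a small rise by CPM (0.23 ± 0.07, adjusted p = 0.0234). By FPKM it averaged 101 ± 4.06 FPKM in SsA cells and 96.6 ± 5.01 FPKM in DMSO cells (SD, n = 3 each) with overlapping groups. On the log2(TPM + 1) scale, where the median of all genes moved to -0.31, its sign reversed (-0.14, limma adjusted p = 0.746). ITGB1 made up 74.6% ± 1.4 of the summed integrin beta FPKM in SsA cells and 70.6% ± 1.8 in DMSO cells (SD, n = 3 each, exact permutation p = 0.1, the smallest possible). The summed FPKM of all alpha subunits over that of ITGB1 was 0.314 ± 0.013 in SsA cells and 0.449 ± 0.027 in DMSO cells, without overlap. The ITGB1 transcript is shorter, at 3784 nt, against 3858 to 10757 nt for the tested alpha subunits and 4372 to 8751 nt for the other tested beta subunits. With the length offset 0 of the 7 tested alpha genes were lower, where 13.4% of all genes were. Of these 7, 2 were higher, where 20.1% of all genes were, and ITGB1 was higher too.

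ITGB8, which with ITGAV binds latent TGF-beta, had the lowest log2 fold change of the beta subunits. It had 16.9, 18 and 17.1 CPM in SsA libraries, against 36.4, 31.4 and 38.1 CPM in DMSO libraries (log2 fold change -1.03 ± 0.09, adjusted p = 2.64e-04), and 1 SsA library and all 3 DMSO libraries reached 1 FPKM. The gene lies at chr7:20330702-20415754. ITGB4, the hemidesmosome subunit that pairs with ITGA6, fell with a wider spread. It had 38, 28.1 and 24.4 CPM in SsA libraries, against 42, 40.8 and 54.4 CPM in DMSO libraries (-0.60 ± 0.18, adjusted p = 0.0293). ITGB5, another partner of ITGAV, was not called. It had 221, 258 and 238 CPM in SsA libraries, against 239, 243 and 200.2 CPM in DMSO libraries, with overlapping groups (0.07 ± 0.10, adjusted p = 0.563). ITGB1BP1, which binds the tail of ITGB1 and holds back its activation, rose. It had 102, 118 and 124 CPM in SsA libraries, against 92.8, 85 and 74.2 CPM in DMSO libraries (0.45 ± 0.11, adjusted p = 0.0111). Neither ITGAE, ITGB1 nor ITGB1BP1 was called with scaling by library totals or on the FPKM scale.

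Not every call held with fewer libraries. When each library was left out in turn, 16 of the 27 called genes kept their call and sign throughout, among them COL12A1, COL5A1, COL1A1, LAMA5, LAMA1, LAMC1 and ITGB8. LAMC3 lost its call in each of the 6 refits (edgeR adjusted p = 0.0512 to 0.125). ITGA5 (adjusted p = 0.0602 to 0.15) and ITGA2 (adjusted p = 0.0629 to 0.103) lost theirs without any 1 library except SsA replicate 1. COL4A5 (adjusted p = 0.0695 to 0.102), COL5A2 (0.0869 to 0.122) and ITGB1 (0.0601 to 0.107) lost theirs without DMSO replicate 1 or 2 or SsA replicate 2 or 3. ITGAE (0.055 to 0.117) and ITGB4 (0.054 to 0.0946) lost theirs without DMSO replicate 1 or 3 or SsA replicate 2 or 3. ITGA6 lost its call without DMSO replicate 3 (adjusted p = 0.0545) or SsA replicate 2 (0.0731), LAMB1 without SsA replicate 2 (0.0534) and COL18A1 without DMSO replicate 2 (0.0551). Signs did not change in any of these refits for the 27 called genes.

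The libraries with the higher mitochondrial share were set apart in a further check. Without SsA replicate 1 and DMSO replicate 3, edgeR called 24 of the 33 genes lower and 4 higher, with COL9A3 added (0.60, adjusted p = 0.00119). Calls over all genes also became more, 3946 lower and 3801 higher, against 3190 lower and 2956 higher with all 6 libraries. The log2 fold changes in the 4 remaining libraries and the log2 ratio of SsA replicate 1 over DMSO replicate 3 had the same sign for 31 of the 33 genes, the exceptions being COL3A1 and COL15A1. The matching count over all genes was not taken. LAMA5 showed -1.37 in the 4 libraries and -1.36 in the pair, and COL12A1 showed -1.23 and -1.06. ITGA2 was the least even, with -0.57 in the 4 libraries and -2.43 in the pair.

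Transcript length moved with these values. Over the 33 genes the Spearman rho between log2 fold change and the length of the longest GENCODE 29 transcript was -0.89, and over 10040 protein-coding genes tested it was -0.72, given as descriptions since genes share their libraries. The slope of a library's log2 CPM (as deviation from the mean over libraries) per doubling of length was -0.16, -0.23 and -0.25 in SsA libraries, against 0.19, 0.18 and 0.27 in DMSO libraries. The 33 genes are long, with a median of 6483 nt against 3348 nt over all genes tested, and 26 of them measure 4914 nt or more. Of those 26, 24 were called lower and none higher, while 66.8% of the 3012 protein-coding genes of that length were called lower and 5.71% higher.

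Set against genes of like length (deciles of protein-coding genes), LAMA5, LAMA1, COL12A1, COL1A1, ITGB8 and ITGA2 lay below the lower quartile of log2 fold change. COL3A1, COL15A1, COL9A3, LAMB3, ITGB5, ITGB1, ITGAE and ITGB1BP1 lay above the upper quartile. The other 19 lay between the quartiles, among them COL4A1, COL4A2, COL5A1, LAMC1 and ITGA1. Quartiles by definition leave the same share of a decile's genes below and above them. A place outside the quartiles therefore does not by itself set a gene apart. In the decile of the longest genes (7543 nt and more) the quartiles were -1.02 and -0.30 with a median of -0.66, and the 10 genes in it had a median of -0.94.

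**Figure D3:**
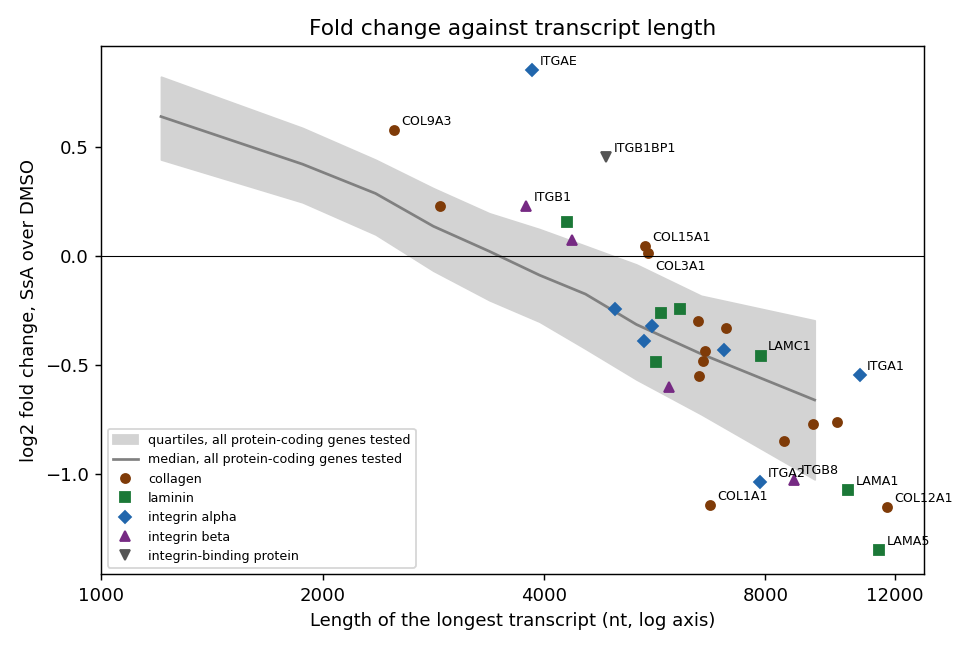
Log2 fold change (SsA over DMSO) of the 33 tested genes against the length of the longest transcript (nt, log axis), over the median and quartiles of all protein-coding genes tested by length decile. LAMA5 at -1.35 and COL1A1 at -1.14 lie below the grey band and ITGAE at 0.85 lies above it.

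A fit with a length offset per library, which takes that slope out of each library, changed most calls. It called 7 of the 33 genes higher, where 20.1% of all genes were, and 6 lower, where 13.4% of all genes were. The median log2 fold change of the 33 became 0.08, against 0.05 over all genes. The 6 lower were LAMA5 (-0.51 ± 0.07, adjusted p = 0.00217), COL1A1 (-0.64 ± 0.12, adjusted p = 0.00814), COL12A1 (-0.30 ± 0.07, adjusted p = 0.0127), LAMA1 (-0.30 ± 0.09, adjusted p = 0.0431), ITGB8 (-0.35 ± 0.09, adjusted p = 0.0214) and COL5A1 (-0.20 ± 0.06, adjusted p = 0.0351). The 7 higher were ITGAE (1.01 ± 0.29), ITGB1BP1 (0.76 ± 0.12), COL15A1 (0.42 ± 0.09), COL3A1 (0.39 ± 0.13), LAMB3 (0.38 ± 0.10), ITGB1 (0.37 ± 0.06) and ITGA1 (0.25 ± 0.08), with adjusted p = 0.00416 to 0.0477 by edgeR. ITGA1 is the 1 gene called lower without the offset and higher with it. Type IV collagens, LAMB2 and LAMC1 were called in neither direction with it: COL4A2 was at -0.07 ± 0.10 and LAMC1 at 0.15 ± 0.05. With the slope taken over all genes tested in place of protein-coding genes, 3 of the 33 were higher (20.5% of all genes) and 9 lower (18.8% of all genes).

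**Figure D4:**
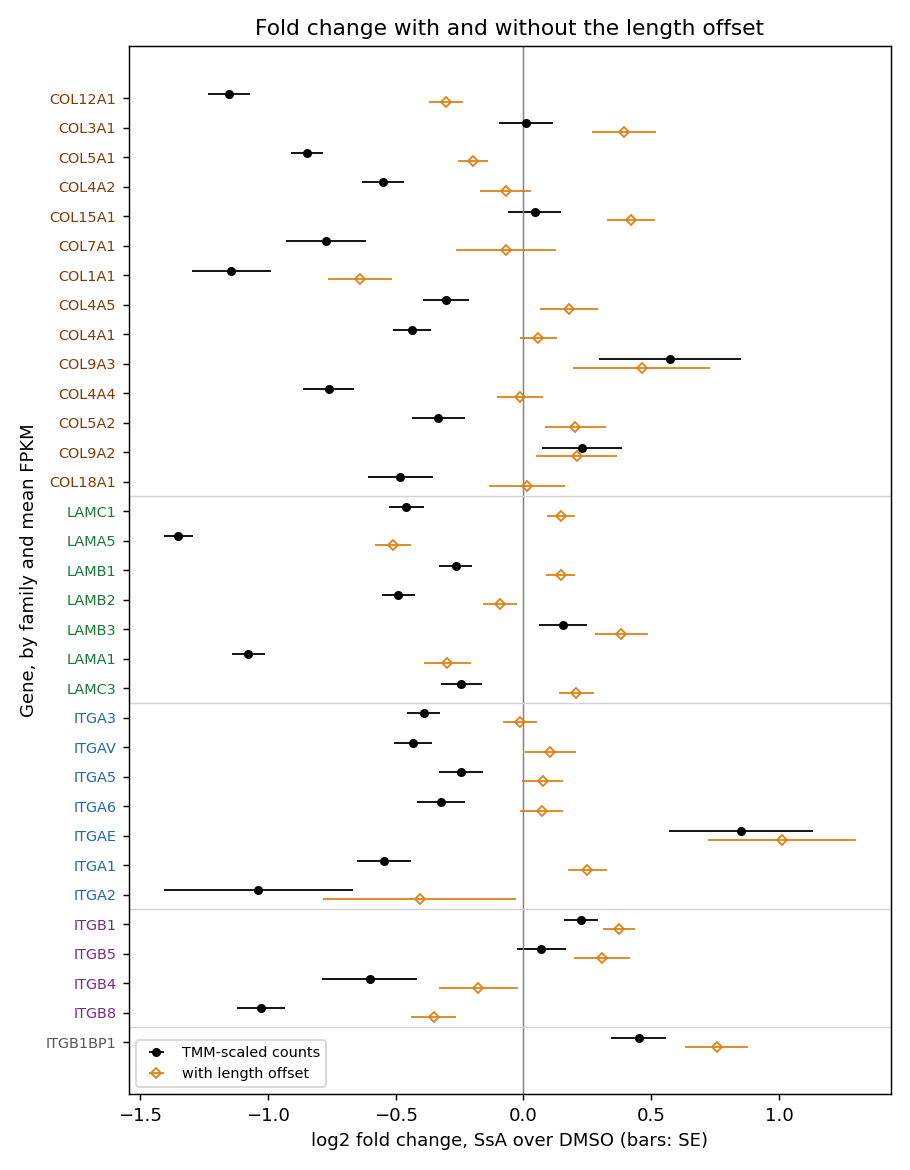
Log2 fold change (SsA over DMSO) of the 33 tested genes from TMM-scaled counts (filled) and from the fit with a length offset (open), with SE bars. LAMA5 stands at -0.51 with the offset and -1.35 without it, COL4A2 at -0.07 with it and -0.55 without it, and COL1A1 at -0.64 is the lowest with the offset.

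Among the genes that fold, modify and export collagen, more rose than fell. Of 19 tested genes of collagen biosynthesis and secretion (22 listed), 9 rose and 2 fell, where 25.9% of all genes rose and 27.9% fell, with a median log2 fold change of 0.25. The collagen chaperone SERPINH1 (0.53 ± 0.05, adjusted p = 4.07e-04), the proline isomerase PPIB (0.98 ± 0.11, adjusted p = 5.20e-04) and the prolyl hydroxylase subunit P4HA1 (0.60 ± 0.09, adjusted p = 0.00169) rose. SERPINH1 had 111, 112 and 112 CPM in SsA libraries, against 74.8, 77.5 and 78.9 CPM in DMSO libraries. The 2 falls were MIA3 (-0.49 ± 0.11), which loads procollagen into carriers at exit sites of the endoplasmic reticulum, and TMEM131 (-0.88 ± 0.21), which helps procollagen secretion. With the length offset 11 were higher and none lower, where 20.1% of all genes were higher and 13.4% lower. On the log2(TPM + 1) scale limma called none of the 19 higher, where it called 49 of all 11427 genes higher. The median of the 19 on that scale was -0.11, above the -0.31 of all genes.

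Other matrix genes were mixed. Of 6 tested genes of collagen processing and cross-linking (15 listed), 1 rose and 2 fell, where 25.9% of all genes rose and 27.9% fell. PCOLCE2, an enhancer of procollagen cleavage (0.53 ± 0.16, adjusted p = 0.0272), rose, and PXDN, which cross-links type IV collagen (-0.60 ± 0.08, adjusted p = 0.00114), and the protease TLL1 (-0.21 ± 0.05, adjusted p = 0.0152) fell. PCOLCE2 lost its call without SsA replicate 2 or 3 or DMSO replicate 3 (adjusted p = 0.0539 to 0.0929), and TLL1 without SsA replicate 2 or 3 or DMSO replicate 1 (0.0572 to 0.0647). TLL1 was called higher with the length offset (0.29 ± 0.06, adjusted p = 0.00755), and neither PCOLCE2 (adjusted p = 0.166) nor PXDN (adjusted p = 0.313) was called. Of 9 tested basement membrane partners (15 listed), 4 fell and 1 rose, where 27.9% of all genes fell and 25.9% rose. The falls were the heparan sulfate proteoglycans AGRN (-0.89 ± 0.06, adjusted p = 1.06e-04) and HSPG2 (-1.46 ± 0.17, adjusted p = 5.95e-04), the Fraser complex gene FRAS1 (-1.27 ± 0.15, adjusted p = 6.02e-04) and the laminin receptor DAG1 (-0.72 ± 0.14, adjusted p = 0.00425), and FBLN1 rose (0.34 ± 0.12, adjusted p = 0.0426). HSPG2 had 193, 139 and 129 CPM in SsA libraries, against 388, 397 and 483 CPM in DMSO libraries. FRAS1 passed the filter through the DMSO group, with no SsA library and all 3 DMSO libraries at 1 FPKM. Under the length offset 2 partners, AGRN and HSPG2, were lower and 1 was higher, where 13.4% of all genes were lower and 20.1% higher. FRAS1 (-0.24 ± 0.11, adjusted p = 0.124), DAG1 (adjusted p = 0.0749) and FBLN1 (adjusted p = 0.0722) were not called with the offset.

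Of 14 tested further integrin ligands (23 listed), 3 rose and 3 fell, where 25.9% of all genes rose and 27.9% fell. The matricellular genes CCN1 (0.85 ± 0.08, adjusted p = 2.64e-04) and CCN2 (0.91 ± 0.10, adjusted p = 4.27e-04) and vitronectin, VTN (0.71 ± 0.12, adjusted p = 0.00289), rose. The fibrillins FBN1 (-0.88 ± 0.07, adjusted p = 1.60e-04) and FBN2 (-0.86 ± 0.08, adjusted p = 3.16e-04) and the nephronectin gene NPNT (-0.20 ± 0.06, adjusted p = 0.0217) fell. With the length offset 5 of the 14 were higher, CCN1, CCN2 and VTN among them, where 20.1% of all genes were higher. None was lower, where 13.4% of all genes were, so that FBN1, FBN2 and NPNT lost their calls (adjusted p = 0.78, 0.663 and 0.36). The endocytic collagen receptor MRC2 fell (-0.39 ± 0.06, adjusted p = 0.00164), while the collagen receptor kinase DDR1 was at -0.19 ± 0.09 (adjusted p = 0.123). MRC2 was at 0.05 ± 0.06 with the length offset (adjusted p = 0.565). Of 12 tested matrix proteases and inhibitors (27 listed), 4 rose and 5 fell, against the same shares of all genes, with the inhibitor TIMP1 (0.88 ± 0.08, adjusted p = 2.24e-04) and the urokinase receptor PLAUR (0.72 ± 0.09, adjusted p = 7.96e-04) among the rises and the membrane protease MMP24 (-0.75 ± 0.07, adjusted p = 3.45e-04) among the falls. Under the length offset 6 of these were higher, where 20.1% of all genes were, and 1, MMP24, was lower, where 13.4% of all genes were. TIMP1 was not called with the offset (adjusted p = 0.107).

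Among the genes whose proteins link integrins to actin inside the cell, more fell than rose. Of 35 tested adhesion adaptors (40 listed), 20 fell and 5 rose, with a median log2 fold change of -0.44, where 27.9% of all genes fell and 25.9% rose. Their median length was 5151 nt. Of the protein-coding genes in the length decile that holds this value, 4914 to 5855 nt, 53.3% fell and 7.47% rose. Among the falls of smallest p were TNS3, a tensin (-1.30 ± 0.07, adjusted p = 5.45e-05), and TLN1, the talin that activates integrins (-0.80 ± 0.06, adjusted p = 1.49e-04). TLN1 had 199, 189 and 181 CPM in SsA libraries, against 328, 335 and 328 CPM in DMSO libraries. Of the 3 tested hemidesmosome partners, PLEC (-1.95 ± 0.09, adjusted p = 3.94e-05) and DST (-0.78 ± 0.06, adjusted p = 1.63e-04), cytolinkers that bind ITGB4, fell, and the tetraspanin CD151, also counted among the adaptors, rose (0.69 ± 0.16, adjusted p = 0.0112). With the length offset 5 adaptors were lower and 7 higher, where 13.4% of all genes were lower and 20.1% higher, TLN1 and CD151 were not called (adjusted p = 0.167 and 0.0744), PLEC and TNS3 stayed lower, and DST was called higher.

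The 39 genes under the filter were scarce, and 23 of them never exceeded 0.1 FPKM in any library. In the fit with no filter none of the 39 was called higher, where 9.95% of all rows were called higher, and 2 were called lower, where 10.8% of all rows were. These were COL4A3 and the fibrillar collagen COL27A1 (-1.32 ± 0.14, adjusted p = 4.57e-04), which had 793 counts over the SsA libraries and 2380 over the DMSO libraries. Integrin subunits of leukocytes and platelets were at very low counts: ITGAL had 14 counts over the SsA libraries and 4 over the DMSO libraries, and ITGA2B and ITGB2 peaked at 0.144 and 0.101 FPKM. Type VI collagen genes summed to 0.409 ± 0.072 FPKM in SsA cells and 0.499 ± 0.036 FPKM in DMSO cells (SD, n = 3 each).

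Some of the 33 genes overlap others, and the strand setting of the counting used by the submitters is unknown here. PELO lies inside ITGA1 on the same strand and averaged 5.24 FPKM, against 2.15 FPKM for ITGA1, so reads of the pair may have been shared, and PELO did not pass the test (-0.03 ± 0.10, adjusted p = 0.828). Protein-coding genes on the opposite strand overlap LAMA5 (ADRM1), LAMB1 (DLD), ITGB4 (GALK1), ITGAE (HASPIN), ITGB1BP1 (ASAP2), COL18A1 (SLC19A1) and COL9A3 (TCFL5), and COL4A1 and COL4A2 overlap each other.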

How the data were processed

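RNA-seq of 6 libraries (3 SsA, 3 DMSO, 4 h) was analysed from 1 table of 29435 genes. Per the labels' protocols, polyadenylated RNA was fragmented and made into dUTP libraries. The submitters' processing notes name the build GRCh38 and the tools StringTie 1.3.4d, HISAT2 2.0.4 and cutadapt 1.9. Settings, annotation release and counting step were not given in the sources used here, so none is stated. The deposited counts are whole numbers whose totals differ between libraries. The deposited FPKM values are, per the file headers, scaled by the authors to length and library size. Columns marked SA were read as SsA and unmarked columns as DMSO. Of the 29435 IDs, 28679 matched GENCODE 29, which gave the length of the longest transcript, the exons and the overlaps, and all 72 genes of the report had one. Coordinates are those of the deposited table.

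Genes with at least 1 FPKM in at least 3 of 6 libraries (11427) were tested on counts with edgeR 4.0.16 (R 4.3.3): TMM scaling, quasi-likelihood test, two-sided, Benjamini-Hochberg adjustment over all genes tested, threshold 0.05. SE is the log2 fold change over the square root of F. The biological coefficient of variation was 15.3%. Ratios of FPKM were compared by exact permutation tests. The length offset took from each library its slope of log2 CPM on log2 length, estimated over protein-coding genes tested. Alternatives were DESeq2 1.42.0, limma 3.58.1 on log2(FPKM + 1), log2(FPKM + 0.1) and log2(TPM + 1), other scalings and filters, fits without single libraries and a replicate block. On simulated counts the scripts were tested before use.

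Members and lists were chosen with earlier results of these data known. Full values are given for up to 8 genes per family by mean FPKM and for called changes of at least 2-fold. Of each other list up to 3 called genes of smallest p were named. COL4A1, COL4A4, COL5A2, COL18A1, COL9A2, COL9A3, MIA3, TMEM131, DAG1, FBLN1 and DDR1 were named beyond that after their values were seen. Intervals are not given for single libraries, and depth is the total count. Some genes of the lists are not reported here.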

Additional observations from a re-analysis of the deposited data

How the results depend on the processing

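The count of called genes among the 33 depended on length correction and scaling. Genes called lower numbered 24, and 14 with a mean FPKM of at least 5 (fewer genes tested), 15 by limma on log2(TPM + 1), 6 with the length offset, 9 with its slope over all genes (chosen after seeing the data) and 2 with the length offset and replicate block. Genes called higher numbered 3, and 1 with a mean FPKM of at least 5, 0 with library totals, 0 by limma on log2(FPKM + 1), log2(FPKM + 0.1) and log2(TPM + 1), and 7 with the length offset. Without any 1 library the counts ran from 1 to 4 higher and 16 to 23 lower, with 1 higher without SsA replicate 2, SsA replicate 3 or DMSO replicate 1. Over all genes 2956 were higher and 3190 lower. The higher count was 1666 with a mean FPKM of at least 5, 1237 with library totals, 914 and 886 by limma with a pseudocount of 1 or 0.1, 49 by limma on TPM and 1253 with the length offset and replicate block. The lower count was 1762 with a mean FPKM of at least 5, 1525 with the length offset and 897 with both. Without any 1 library it ran from 2005 to 3153 higher and from 2594 to 3249 lower. Library totals, log2(FPKM + 1), log2(FPKM + 0.1) and log2(TPM + 1) moved the median of all genes to -0.12, -0.11, -0.13 and -0.31. Deviations of libraries sharing a replicate number correlated at -0.48, 0.43 and -0.50, and those of SsA replicate 1 and DMSO replicate 3 at 0.69. With 3 libraries in a group these values cannot show whether the replicates were handled as pairs. The replicate block gave 1 higher and 17 lower of the 33, and 2074 higher and 2542 lower of all. With the length offset, and then with the offset and replicate block, these log2 fold changes reversed sign: LAMC3 0.21 and 0.21, LAMB1 0.15 and 0.15, LAMC1 0.15 and 0.15, ITGA6 0.072 and 0.069, ITGAV 0.11 and 0.10, ITGA5 0.075 and 0.073, ITGA1 0.25 and 0.25, COL18A1 0.013 and 0.0087, COL4A1 0.058 and 0.059, COL4A5 0.18 and 0.19, COL5A2 0.20 and 0.21, TLL1 0.29 and 0.29, DST 0.48 and 0.48, and MRC2 0.049 and 0.048. With the slope over all genes LAMC3 was 0.0054 and TLL1 0.068, and ITGB1 reversed on TPM (-0.14). The cause was not tested. The alternatives DESeq2, a mean FPKM of at least 1 and 4 libraries changed no sign among called genes. Depth limits the scarcest tested genes: ITGA2 had 145 to 523 counts in SsA libraries and 842 to 891 counts in DMSO libraries.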
